A study of Populus yunnanensis with 9 samples.

Results

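The 5 cellulose synthase (CesA) genes of the secondary wall were followed in leaves of Yunnan poplar (Populus yunnanensis) with and without cadmium (Cd). They were chosen by identifier from the 41335 genes listed, and all 5 were measured in each of the 9 libraries. They are CesA4 (Potri.002G257900.v3.0), CesA7-A (Potri.006G181900.v3.0), CesA7-B (Potri.018G103900.v3.0), CesA8-A (Potri.011G069600.v3.0) and CesA8-B (Potri.004G059600.v3.0). The tables give identifiers alone, and no annotation was used here to check the names or to give genome positions and sequences. All plants were grown from 72 cuttings of 15 trees, kept in 24 pots with 3 cuttings each. One set of pots received no Cd (CK), another received Cd to a final 480 mg per kg of dry soil (Cd), and the last received the same Cd together with nitrogen as ammonium bicarbonate to 360 mg N per kg (Cd + N). Additions were made every 5 d, and after 60 d the fourth to sixth leaves from the apex of the 4-month-old seedlings were taken. The labels give replicate numbers 1 to 3 in each group without stating which pots or trees a library came from, so the p-values measure the spread between these libraries, whatever its source.

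Cellulose is made at the plasma membrane by complexes of CesA proteins, each of which adds glucose units to a growing glucan chain. Plants hold one set of CesA proteins for the thin primary wall of growing cells. Another set, CesA4, CesA7 and CesA8, serves the thick secondary wall that is laid down after growth has stopped. In Arabidopsis all 3 of these proteins are needed for a working secondary wall complex, and loss of any of them gives collapsed xylem vessels, which is why the genes carry the name irregular xylem. Poplars hold CesA7 and CesA8 as pairs of paralogs, named A and B. In a leaf, secondary walls are found mainly in the xylem and fibres of the veins, so transcripts of these genes come from a small part of the tissue. In whole leaves, fewer cells of such a type and less RNA per cell cannot be told apart.

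All 5 genes were weakly expressed and varied widely among libraries of the same treatment. Levels are given as FPKM, reads scaled to gene length and to the library total, where genes are compared with each other, and otherwise as CPM, which are scaled to the library size after TMM normalization. The mean level over the 9 libraries was 2.01 ± 2.23 FPKM for CesA4, 1.50 ± 1.57 for CesA7-B, 1.42 ± 1.17 for CesA8-A, 0.840 ± 0.523 for CesA7-A and 0.527 ± 0.503 for CesA8-B (SD, n = 9). These SDs were of the order of the means and describe the spread between libraries, not differences between genes within a library. CesA8-B had the lowest FPKM of the 5 in each of the 9 libraries, while the highest member changed between libraries. The order was not tested. By mean log2 CPM the members lay between the 23.1 and the 33.6 percentile of the 27378 genes tested. An FPKM of at least 1 was reached in 5 libraries by CesA4 and CesA8-A, in 4 by CesA7-B, in 3 by CesA7-A and in 2 by CesA8-B. The order rests on the gene lengths behind the deposited FPKM. The lengths recovered from the counts were 3129 bases for CesA4, 6195 for CesA7-A, 2214 for CesA7-B, 2937 for CesA8-A and 5982 for CesA8-B. The 2 members with the lowest mean FPKM are those with the longest recovered lengths. All 34971 lengths recovered were multiples of 3, but what they measure was not established. By reads, without a length, CesA4 had 2070 over all libraries, CesA7-A 1700, CesA8-A 1379, CesA7-B 1099 and CesA8-B 1030. In CK replicate 3, Cd replicates 1, 2 and 3 and Cd + N replicate 3 another member had fewer reads than CesA8-B. In the other libraries CesA8-B had the fewest.

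CesA4 had the widest range. Its level was 5.63, 1.01 and 5.49 FPKM in CK replicates 1, 2 and 3. Under Cd it was 2.90, 0.148 and 0.277 FPKM. Under Cd + N it was 0.429, 0.0518 and 2.16 FPKM. One library of each Cd-exposed group therefore lay above CK replicate 2, and the groups overlapped. The lowest of these values rests on 6 reads, whose exact 95% Poisson interval is 2.20 to 13.1 and covers counting error only.

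The CesA7 pair followed the same libraries with a smaller range. CesA7-B, the copy with the larger FPKM in CK, had 4.39, 0.988 and 3.84 FPKM in CK. It had 1.55, 0.313 and 0.291 FPKM under Cd. It had 0.474, 0.183 and 1.48 FPKM under Cd + N. The 4 highest libraries were those of CesA4, and again each Cd-exposed group had 1 library above the lowest of CK. CesA7-A had 1.66, 0.508 and 1.59 FPKM in CK. It had 0.945, 0.508 and 0.624 FPKM under Cd. It had 0.447, 0.174 and 1.10 FPKM under Cd + N. Its range was the narrower one in this pair, with a highest CPM 9.95 times the lowest against 25.04 times for CesA7-B.

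The CesA8 pair differed most in the library with the fewest reads. CesA8-A had 3.62, 1.04 and 3.00 FPKM in CK. It had 1.45, 0.452 and 0.448 FPKM under Cd. It had 0.496, 0.634 and 1.68 FPKM under Cd + N. This was the only member whose lowest level was not in Cd + N replicate 2. CesA8-B had 1.08, 0.296 and 1.47 FPKM in CK, 0.712, 0.121 and 0.197 under Cd, and 0.112, 0.0180 and 0.743 under Cd + N. Its value in Cd + N replicate 2 rests on 4 reads, with an exact 95% Poisson interval of 1.09 to 10.2, while CesA8-A had 69 reads there.

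**Figure D1:**
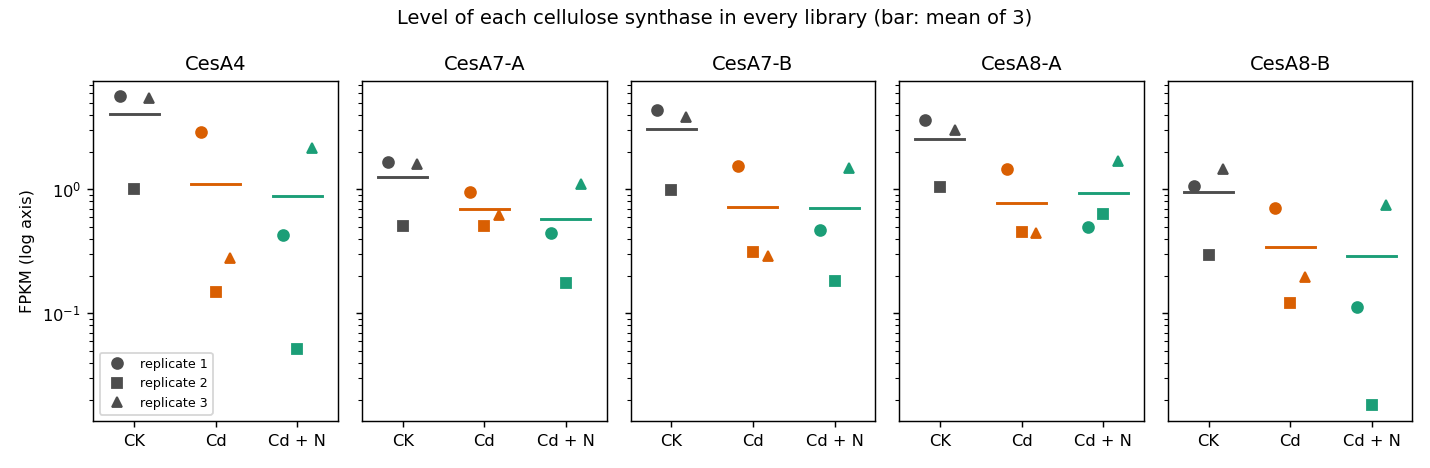
Level of each member in FPKM (log axis) in the 9 libraries, by treatment. Symbols stand for replicate numbers and bars for the mean of 3 libraries. In every panel replicate 2 of CK lies below the other CK libraries, and replicate 1 of Cd and replicate 3 of Cd + N lie above the others of their groups.

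The same 4 of the 9 libraries were the highest for every member. These were CK replicates 1 and 3, Cd replicate 1 and Cd + N replicate 3, so each treatment had at least 1 of them. The step from the fourth to the fifth library in CPM was 2.06-fold for CesA4, 1.82-fold for CesA7-A, 1.44-fold for CesA7-B, 1.47-fold for CesA8-A and 2.42-fold for CesA8-B. The summed level of the 5 genes was 57.3, 13.8 and 53.1 CPM in CK, 29.5, 5.83 and 7.17 under Cd, and 7.31, 3.64 and 26.2 under Cd + N. The highest sum of a Cd-exposed library was thus more than the lowest of CK in both Cd-exposed groups. Differences between the group means held 37.5% of the variation of CesA4 in log2 CPM, 31.6% of that of CesA7-A, 49.0% for CesA7-B, 48.6% for CesA8-A and 35.7% for CesA8-B, and the median over all genes tested was 33.5%. The rest lay among libraries of one treatment. Noise alone makes group means differ, so these shares would be above 0 without any effect of treatment. The within-group SD in log2 CPM was 2.12 for CesA4, 1.75 for CesA8-B, 1.36 for CesA7-B and 0.989 for both CesA7-A and CesA8-A, against a median of 0.340 over all genes tested. Only 0.731% of the genes tested had a within-group SD as large as that of CesA4, and 10.6% had one as large as that of CesA7-A. Low counts widen this spread, so the biological coefficient of variation of edgeR, which takes counting noise out, was set beside the value that edgeR fits for genes of the same abundance. It was 1.08 against 0.394 for CesA4, 0.949 against 0.454 for CesA8-B, 0.783 against 0.449 for CesA7-B, 0.606 against 0.430 for CesA8-A and 0.579 against 0.412 for CesA7-A.

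The members rose and fell together from library to library. Over the 9 libraries the Pearson r of log2 CPM ranged from 0.816 to 0.980 in the 10 pairs, with a median of 0.937, and Spearman's rho from 0.767 to 0.983. These values are a description and carry no p, since the genes were chosen with earlier results of these data known. The 2 genes of a pair share the depth and normalization of each library, and their 9 values include the treatment differences. After each group's mean was subtracted, r was still between 0.822 and 0.979 with a median of 0.939. After the mean of each replicate number was subtracted as well, it was between 0.752 and 0.981 with a median of 0.912. Without the 2 libraries farthest from the median of the members' mean profile, CK replicate 1 and Cd + N replicate 2, it was between 0.886 and 0.992.

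**Figure D2:**
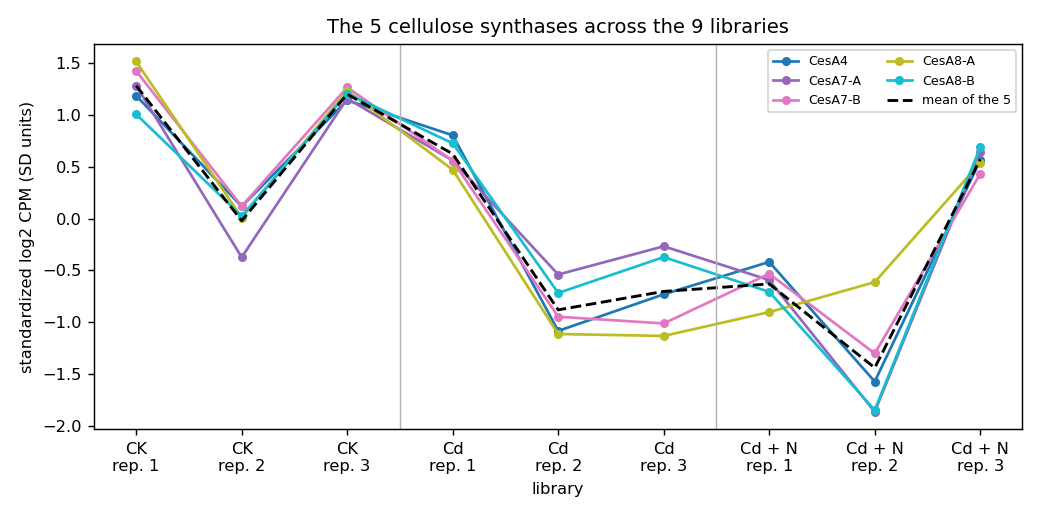
Standardized log2 CPM (SD units, each gene scaled over the 9 libraries) of the 5 members and their mean, by library. Lines only join the points of one gene, since replicates have no order. CK replicates 1 and 3, Cd replicate 1 and Cd + N replicate 3 are the highest libraries of every gene, and CesA8-A stands apart in Cd + N replicate 2.

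Over the 9 libraries the closest partner of each member was a gene other than its own paralog. CesA7-A and CesA8-B had the highest r, 0.980, and each was the gene ranked 2 of 27377 for the other. CesA4 and CesA7-B had an r of 0.979, with CesA7-B ranked 5 for CesA4 and CesA4 ranked 2 for CesA7-B. For CesA8-A the closest member was CesA7-B, with an r of 0.957 and a rank of 8. The paralogs CesA7-A and CesA7-B had an r of 0.915, at ranks 81 and 154 for each other. CesA8-A and CesA8-B had an r of 0.835, at ranks 527 and 992, but 0.971 without CK replicate 1 and Cd + N replicate 2. Without those 2 libraries CesA8-A was the closest partner of CesA8-B, as CesA7-A then had an r of 0.968 with it. The lowest r, 0.816, was that of CesA7-A with CesA8-A, at ranks 712 and 1155. Of the 20 ranks that members held for each other, 13 were within the first 100 and the median was 62. Whether one pair was closer than another was not tested.

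**Figure D3:**
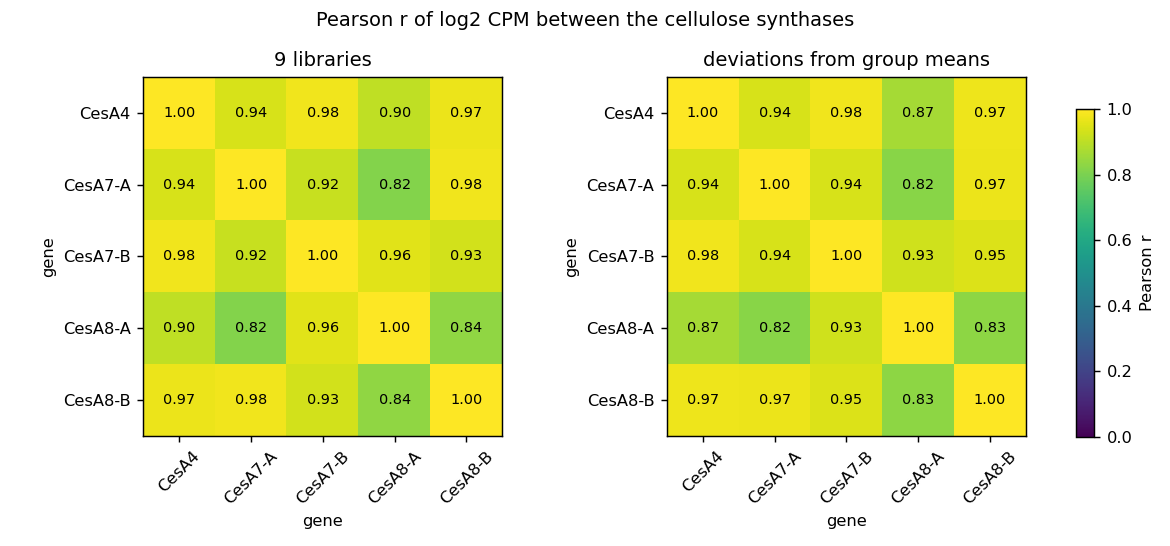
Pearson r of log2 CPM for each pair of members, over the 9 libraries on the left and for deviations from the group means on the right. All pairs are at 0.816 or above on the left and at 0.822 or above on the right, with the lowest values in the row of CesA8-A.

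The members' mean profile, the mean of their standardized log2 CPM, was set beside all genes tested. CesA4 came first in likeness to it with an r of 0.990, CesA7-B came at rank 3, CesA8-B at 9, CesA7-A at 14 and CesA8-A at 74, which follows in part from their being in the profile. Of the 27373 other genes, 24 (0.0877%) had an r of at least 0.95 and 216 (0.789%) of at least 0.9, while 209 (0.764%) had an r of -0.9 or below. The 2 other genes most like the profile were Potri.016G112000.v3.0, with an r of 0.990 and a rho of 0.967, and Potri.010G067100.v3.0, with an r of 0.985 and a rho of 0.933. Potri.016G112000.v3.0 had 2.57, 0.279 and 2.05 FPKM in CK, 1.00, 0.107 and 0.200 under Cd, and 0.145, 0.0167 and 1.17 under Cd + N. Potri.010G067100.v3.0 had 2.62, 1.10 and 2.39 FPKM in CK, 1.99, 0.782 and 0.779 under Cd, and 0.686, 0.539 and 1.84 under Cd + N. What these 2 genes encode was not looked up. The profile also moved with the first principal component of all genes, which held 41.8% of their variation, with an r of 0.855 and a rho of 0.850 in size over the 9 libraries. With this component taken out of each member, a step added after the data were seen, the median r of the 10 pairs was 0.791 and the lowest was 0.570. The share of reads on the 50 most abundant genes had an r of 0.643 and a rho of 0.750 with the profile, and the total count had an r of 0.237 and a rho of 0.1. The TMM factor, which enters the CPM, had an r of -0.537 and a rho of -0.467. Without the 2 libraries farthest from the median of each measure these r were 0.634, 0.115 and -0.312. The part of any of these in the result was not tested.

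Totals were 31952278 to 40101176 counts per library, of which the 5 members together held 134 to 2193. Group differences were fitted over the 9 libraries together by the quasi-likelihood F-test of edgeR, with p adjusted by the Benjamini-Hochberg method over the 27378 genes and 0.05 as the threshold. Positive log2 fold changes mean a higher level in the group named first. The values for Cd against CK and for Cd + N against CK share the CK libraries, and Cd + N against Cd shares a group with each of them, so the 3 are not independent. Each interval given is the log2 fold change with its approximate 95% limits, whose standard error is the size of the fold change divided by the root of F.

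The comparison of Cd with CK asked what Cd alone did to the leaves. All 5 members were at a lower mean in Cd, but none was past the threshold, so no fall was shown. The share of genes tested with a log2 fold change below 0 was 49.1%. The median log2 fold change was -1.71 over the members and 0.008 over all genes tested, and a log2 fold change below -1 was found in 4 of the 5 members and in 4.6% of all genes. CesA7-B had the lowest value, -2.08 (SE 0.984, interval -4.33 to 0.17, adjusted p = 0.535 by edgeR), with a mean of 6.99 ± 4.17 CPM in CK and 1.67 ± 1.83 in Cd (SD, n = 3 each). CesA8-A had -1.71 (SE 0.729, interval -3.38 to -0.05, adjusted p = 0.492 by edgeR), with 7.70 ± 4.10 CPM in CK and 2.36 ± 1.996 in Cd. CesA4 was at -1.81 (SE 1.41), CesA8-B at -1.45 (SE 1.19) and CesA7-A at -0.90 (SE 0.679), with adjusted p from 0.687 to 0.710 by edgeR. The groups overlapped in all 5 members. For CesA4, CesA7-B, CesA8-A and CesA8-B the same 2 of the 3 Cd libraries, replicates 2 and 3, lay below all of CK. As the members moved together, these are not separate observations, and the share of all genes placed in this way was not computed. Of all genes tested, 0 (0%) were past the threshold. At an unadjusted p under 0.05 there was 1 member, CesA8-A, against 9.88% of all genes. By DESeq2 0 members were past the threshold, against 2.18% of the genes it gave an adjusted p, and 2 were under an unadjusted p of 0.05, against 10.2% of those it gave a p. Without Cd replicate 1 the log2 fold changes of CesA4, CesA7-B, CesA8-A and CesA8-B were -4.39, -3.495, -2.66 and -2.72, with adjusted p of 0.162, 0.116, 0.1004 and 0.294 by edgeR. Without Cd replicate 2 or Cd replicate 3 CesA4 was at -1.28 and -1.33, with adjusted p of 0.981 and 0.970 by edgeR. The unadjusted p of CesA8-A was 0.132 without CK replicate 1, 0.0926 without CK replicate 3, 0.121 without Cd replicate 2, 0.124 without Cd replicate 3 and 0.0540 without Cd + N replicate 2 by edgeR, so its place under 0.05 rested on each of these libraries.

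The comparison of Cd + N with Cd asked what nitrogen did under Cd. No member was past the threshold, and the log2 fold changes were small beside their errors. They were -0.42 for CesA4 (interval -3.59 to 2.74), -0.26 for CesA7-A (-1.81 to 1.29), -0.07 for CesA7-B (-2.27 to 2.14), 0.23 for CesA8-A (-1.40 to 1.87) and -0.28 for CesA8-B (-2.98 to 2.42). The adjusted p of the members ranged from 0.898 to 0.986 by edgeR. These intervals hold changes of more than 2-fold either way, so a lack of effect is not shown. A value below 0 was found in 4 of the 5 members and in 52.1% of all genes, and the median was -0.26 over the members and -0.02 over all genes. Of all genes tested 0 (0%) were past the threshold by edgeR, and at an unadjusted p under 0.05 there were 0 members and 12.5% of all genes. DESeq2 had 0 members past the threshold, against 3.64% of such genes, and 0 under an unadjusted p of 0.05, against 12.9%. The direction turned with single libraries. Without Cd replicate 1 the log2 fold change was 2.15 for CesA4, 1.35 for CesA7-B, 0.99 for CesA8-B and 0.14 for CesA7-A, and without Cd + N replicate 2 it was above 0 for all 5 members.

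The comparison of Cd + N with CK had the lowest log2 fold changes of the 3 comparisons for CesA4, CesA7-A, CesA7-B and CesA8-B, though these differences between comparisons were not tested. The means of all 5 members were lower under Cd + N, against 50.2% of all genes with a log2 fold change below 0. Again none was past the threshold, while 0.267% of all genes were past it in either direction and 0.0657% as lower. CesA4 was at -2.23 (SE 1.43, interval -5.50 to 1.03, adjusted p = 0.444 by edgeR), with 13.0 ± 8.42 CPM in CK and 2.75 ± 3.502 under Cd + N (SD, n = 3 each). CesA7-B was at -2.15 (SE 0.984, interval -4.39 to 0.10, adjusted p = 0.308 by edgeR), CesA8-B at -1.73 (SE 1.20), CesA8-A at -1.48 (SE 0.721) and CesA7-A at -1.16 (SE 0.683). The median was -1.73 over the members and -0.002 over all genes, and values below -1 were found in 5 of 5 members and in 7.45% of all genes. In each member the same 2 of the 3 Cd + N libraries, replicates 1 and 2, lay below all of CK, and the third, replicate 3, lay within the range of CK. Since the members moved together, these are not separate observations, and the share of all genes placed in this way was not computed. At an unadjusted p under 0.05 there were 0 members by edgeR, against 17.1% of all genes, and 2 by DESeq2, against 17%. DESeq2 had 0 members past the threshold, against 7.26% of such genes. Without Cd + N replicate 3 the log2 fold changes were -4.10 for CesA4, -3.88 for CesA8-B, -3.25 for CesA7-B, -2.20 for CesA8-A and -2.04 for CesA7-A. All 5 then had an unadjusted p under 0.05 by edgeR, but the share of all genes under it in this fit was not computed. The library left out was the highest of Cd + N for every member, so its removal lowers the Cd + N mean of each. None of the members was past the threshold, with adjusted p from 0.257 to 0.322 by edgeR, while 42 of 27878 genes were. Without Cd + N replicate 2 CesA7-A was at -0.73, with an adjusted p of 0.664 by edgeR. With the replicate number as a block, 5.27% of all genes were past the threshold, and still 0 members. At an unadjusted p this fit had 4 members lower, all but CesA8-A, against 11.4% of all genes, and the lowest adjusted p among the members was 0.131.

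**Figure D4:**
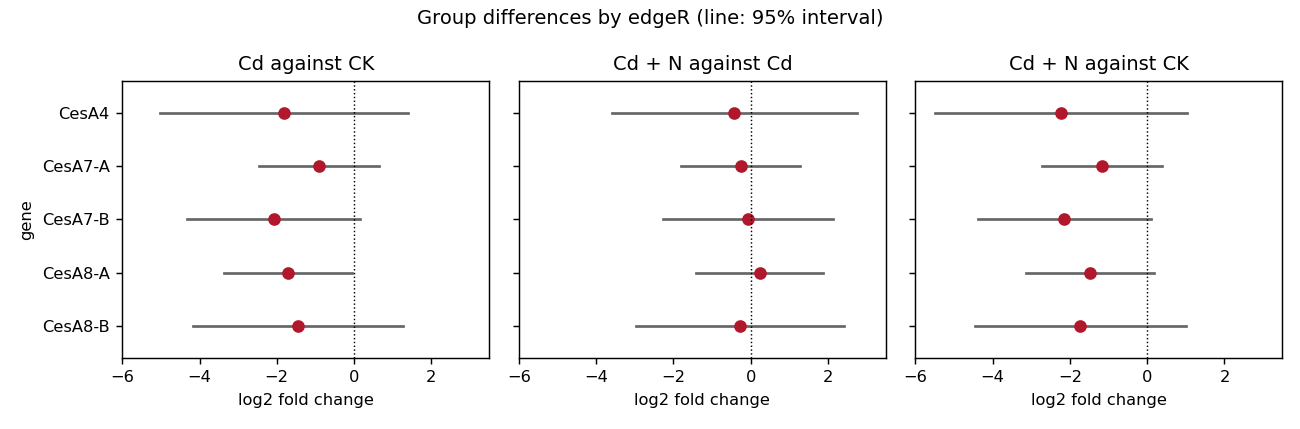
Log2 fold change of each member by edgeR (points) with its approximate 95% interval (lines) in the 3 comparisons, where values below 0 are lower in the group named first. Only CesA8-A in Cd against CK has an interval that ends below 0, at -0.05, and no member is past the adjusted threshold.

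The make-up of the set was also described, because a secondary wall complex draws on all 3 kinds of subunit. In CK the shares of the summed FPKM were 32.1 ± 5.13% for CesA4, 37.1 ± 1.84% for CesA7 (A and B) and 30.8 ± 3.45% for CesA8 (SD, n = 3). Under Cd they were 21.0 ± 15.3%, 45.4 ± 10.8% and 33.6 ± 4.48%. Under Cd + N they were 19.0 ± 12.9%, 38.9 ± 7.15% and 42.1 ± 16.8%. The share of CesA4 was lowest in the libraries where the whole set was low, at 9.58% in Cd replicate 2, 15.1% in Cd replicate 3 and 4.88% in Cd + N replicate 2, and it was 38.4% in Cd replicate 1 and 30.1% in Cd + N replicate 3. CesA4 is part of the summed level and had the widest range of the members, so its share falls with the sum in part by construction. A link between level and share was not tested here. The shares overlapped between the groups. In Cd + N replicate 2 CesA4 had 6 of 134 reads, a share of 4.48% with an exact 95% Clopper-Pearson interval of 1.66% to 9.49%, against 32.2% (30.2% to 34.2%) in CK replicate 1. These intervals cover counting error only.

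The balance within the CesA7 pair differed between CK and the Cd-exposed libraries. CesA7-A made up 51.4%, 59.0% and 53.7% of the reads of the pair in CK, 63.0%, 82.0% and 85.7% under Cd, and 72.5%, 72.7% and 67.6% under Cd + N. All 6 Cd-exposed libraries lay above all 3 of CK, with a mean share of 54.7 ± 3.87% in CK, 76.9 ± 12.2% in Cd and 71.0 ± 2.89% in Cd + N (SD, n = 3 each). How often other pairs of genes separate the libraries in this way was not computed, so how unusual this is remains unknown. Within the counting error 4 of these 6 libraries overlapped CK replicate 2, whose exact 95% interval was 51.4% to 66.3%. The lower limits were 57.2% in Cd replicate 1 and 64.0%, 59.0% and 62.7% in Cd + N replicates 1, 2 and 3, and they cleared CK replicate 2 in Cd replicates 2 and 3 alone, at 74.4% and 79.3%. CK replicate 2 had the highest share of CK, and the upper limits of CK replicates 1 and 3 were 54.9% and 57.6%. No Cd-exposed library had a lower limit under 54.9%, and only Cd replicate 1 had one under 57.6%. Whether such intervals overlap is not a test of a difference. In FPKM the ratio of CesA7-A to CesA7-B was 0.378, 0.514 and 0.415 in CK, 0.608, 1.62 and 2.14 under Cd, and 0.943, 0.953 and 0.746 under Cd + N. Which copy was the higher depends on the scale, as CesA7-A had more reads than CesA7-B in all 9 libraries but a higher FPKM in only 2, Cd replicates 2 and 3. The order of libraries does not depend on it. In each group the share was smallest in the library where the summed level of the 5 genes was highest, but Cd replicate 3 had both a higher sum than Cd replicate 2, 7.17 against 5.83 CPM, and a higher share. Cd replicate 1 and Cd + N replicate 3 had summed levels of 29.5 and 26.2 CPM, above the 13.8 of CK replicate 2, and larger shares of CesA7-A, 63.0% and 67.6% against 59.0%. Both of these shares overlapped that of CK replicate 2 within the counting error. The summed level holds both CesA7 genes, and a link between level and share was not tested. Nor was the difference in balance between CK and the Cd-exposed libraries, as the balance had been set down as a description. The sources used here do not give how reads shared by the copies were counted.

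The CesA8 pair showed no such separation. CesA8-A made up 62.3%, 63.4% and 50.1% of the pair's reads in CK, 50%, 64.8% and 52.8% under Cd, and 68.5%, 94.5% and 52.6% under Cd + N. The groups overlapped, and the mean share was 58.6 ± 7.37% in CK, 55.9 ± 7.85% in Cd and 71.9 ± 21.1% in Cd + N. The value of 94.5% in Cd + N replicate 2 comes from 69 of 73 reads, with an exact 95% interval of 86.6% to 98.5% for counting error, which does not reach those of the other libraries. The interval with the highest upper limit among them was 56.6% to 78.9%, in Cd + N replicate 1.

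**Figure D5:**
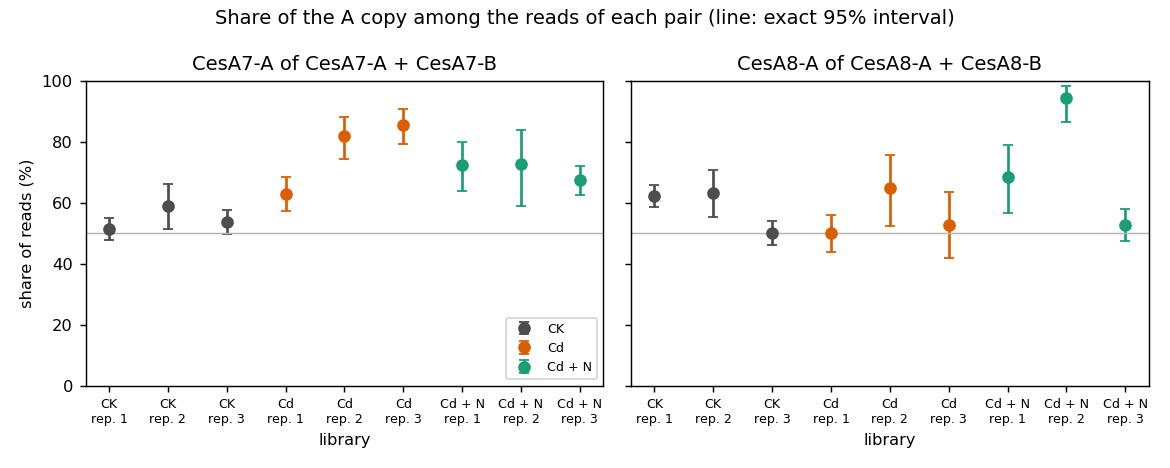
Share of the A copy (%) among the reads of the CesA7 pair (left) and the CesA8 pair (right) in each library, with exact 95% intervals for counting error. On the left the CK libraries lie between 51.4% and 59.0% and the Cd-exposed ones between 63.0% and 85.7%. On the right the groups overlap and Cd + N replicate 2 stands at 94.5%.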

How the data were processed

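RNA of leaves was sequenced in 9 libraries, 3 per group, with groups and replicate numbers taken from the sample titles. The authors deposited read counts per gene, whole numbers without normalization. The authors also deposited FPKM, which equalled the count scaled to 1 length per gene and to the library total within a relative tolerance of 1e-06 for 34971 genes. The submitters' processing notes name Bowtie2 2.0.6 and TopHat2 2.0.12. The counting tool, its use of strand and the annotation beyond the v3.0 ending were not stated in any source used here.

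The members and all lists were chosen with earlier results of these data known. The tools were R 4.3.3, edgeR 4.0.16 (filterByExpr with a minimum count of 10 and total of 15, TMM, quasi-likelihood F-test, no block), limma 3.58.1 and DESeq2 1.42.0, after a check on simulated counts. Changes were planted there only in genes with a higher mean CPM than CesA7-B, CesA8-A and CesA8-B, so the check did not cover these members. Log2 CPM had a prior count of 2. The paper names no test for its transcriptome. Alternatives were DESeq2, upper-quartile factors, no filter, only the 2 groups, the replicate number as a block, limma on log2(FPKM + 1) and log2(FPKM + 0.1) (both on genes that reached an FPKM of 1 in 3 or more libraries), and leaving out each library. Same-numbered libraries of CK and Cd + N deviated together from their group means in all 3 pairs, with correlations from 0.115 to 0.323, which is above the 0.1 required for a pairing. What a number stands for is not in the labels. In the other comparisons 2 of 3 same-numbered pairs were over 0.1. Some libraries with different numbers were over it too. These were CK replicate 3 with Cd + N replicate 1 (0.273), Cd replicate 3 with Cd + N replicate 1 (0.220) and Cd replicate 1 with Cd + N replicate 3 (0.202). The remaining pairs with different numbers were at 0.0971 or below. All pairs of replicates differed by more than sampling noise, with a chi-square per gene of 28.0 or more where sampling alone gives about 1.

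The named genes were to be the members, the genes most like their profile and genes of other wall pathways and cell types found by description. Without annotation only the first 2 by likeness were named. The wall pathway and cell type lists, protein comparisons and promoter motifs were not run, and the leaf label could not be checked against markers for the same reason.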

Additional observations from a re-analysis of the deposited data

How the results depend on the processing

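The count of members past the threshold was 0 in every comparison under all 16 alternatives, with the exception that CesA8-B did not pass the FPKM filter and was left out of both limma fits. For Cd against CK and for Cd + N against CK, all 78 log2 fold changes under these alternatives stayed below 0, with adjusted p from 0.1004 to 0.987 and from 0.131 to 0.746. In Cd + N against Cd, 13 of 78 turned sign, each with 1 library left out. Without Cd replicate 1 they were 2.15 (CesA4), 0.14 (CesA7-A), 1.35 (CesA7-B) and 0.99 (CesA8-B). Without Cd + N replicate 2 they were 0.13, 0.17, 0.39 and 0.28 for the same genes. Without Cd + N replicate 1 they were 0.15 (CesA7-B) and 0.10 (CesA8-B). CesA8-A was at -0.08 without Cd replicate 2, -0.08 without Cd replicate 3 and -0.49 without Cd + N replicate 3. Over the 9 fits that drop a library, the values ran from -2.29 to 2.15 for CesA4, -1.15 to 0.17 for CesA7-A, -1.17 to 1.35 for CesA7-B, -0.49 to 1.17 for CesA8-A and -2.44 to 0.99 for CesA8-B. The cause was not tested beyond the smaller number of libraries.

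Over all genes, the 0 past the threshold in Cd against CK became 627 by DESeq2, 4 with the replicate block and from 0 to 499 with a library left out, the highest without Cd replicate 1. In Cd + N against Cd the 0 became 1069 by DESeq2, 2 with only the 2 groups, 313 with the replicate block, 61 with limma on log2(FPKM + 1) and from 0 to 22 with a library left out, the highest without CK replicate 2. In Cd + N against CK the 73 became 2133 by DESeq2, 1442 with the replicate block, 240 by limma with a pseudocount of 1 on FPKM and 197 with 0.1, and from 0 to 440 with a library left out, the highest without Cd replicate 1. The causes were not tested. The replicate block changed no call of a member.

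The median r of the 10 pairs was 0.937, from 0.922 to 0.962 with a library left out, 0.912 with the replicate block and 0.791 with the first principal component of all genes removed. Counts in place of FPKM moved the mean share of each subunit by less than its SD over the libraries. The low counts, down to 4 reads, limit what can be said of Cd + N replicate 2.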
